A study of Mus musculus with 8 samples.

Results

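The 9 genes described here are linked to the anchor between basal keratinocytes and the basement membrane of the hair follicle. They are laminin chains Lama3 and Lamb3, integrin subunits Itga6, Itgb4 and Itga3, tetraspanin Cd151, plakins Plec and Dst, and transcription factor Trp63. They were named for these roles, with earlier results of these data known, and each was read on the probe with the highest mean signal over all arrays. All 9 were well above background on all 8 arrays, and they were read out of 25353 genes tested. Whisker follicles came from female ApcMin/+ mice, which carry 1 truncating allele of Apc, and every sample of both groups carries it, so no Apc wild-type follicles were compared. The E7386 group (4 samples) received E7386, an oral compound described as an inhibitor of the interaction of beta-catenin with its coactivator CBP, at 30 mg/kg with 2 doses per day, in 4 cycles of 5 days on and 2 days off starting at the age of 8 weeks, and the vehicle group (4 samples) received vehicle. Follicles were taken 6 h after the last dose, and total RNA of the whole follicle was hybridised to 1-colour Agilent arrays. Whether each sample is a different mouse is not stated, so the p-values reflect the scatter among these 8 samples, which may be technical, and precision is limited by the 4 arrays per group. All arrays lay on 1 slide with the E7386 samples in row 2 and the vehicle samples in row 1, so row and treatment cannot be told apart.

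Hemidesmosomes are the junctions by which basal epithelial cells hold on to the basement membrane. Laminin-332, which holds the chains encoded by Lama3 and Lamb3, is secreted by these cells and is bound on the outside by integrin alpha6 beta4, while integrin alpha3 beta1 binds the same laminin in focal contacts. CD151 associates with both laminin-binding integrins, plectin and the epithelial form of dystonin (BP230) tie the integrin to keratin filaments, and p63 is the master regulator of the basal keratinocyte state. In the hair follicle this junction lines the outer root sheath, where the bulge stem cells sit, and loss of its parts in patients or mice causes blistering of the skin.

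The promoter windows of a few members are shown because E7386 was designed against a coactivator step at TCF/LEF-bound genes, and because these genes had the largest mean differences, or groups that did not overlap, among the members with a listed window. Windows from RefSeq (GRCm38.p6) run from 250 bases before to 50 bases after an annotated start, and 4 of the 9 members have one or more (8 windows in all). The capitals mark matches on either strand to the TCF/LEF core CTTTGNT or to the GC box GGGCGG, which do not overlap each other here, and the AP-1 site TGANTCA was searched as well.
Lamb3, chr1:193301744-193302043, plus strand: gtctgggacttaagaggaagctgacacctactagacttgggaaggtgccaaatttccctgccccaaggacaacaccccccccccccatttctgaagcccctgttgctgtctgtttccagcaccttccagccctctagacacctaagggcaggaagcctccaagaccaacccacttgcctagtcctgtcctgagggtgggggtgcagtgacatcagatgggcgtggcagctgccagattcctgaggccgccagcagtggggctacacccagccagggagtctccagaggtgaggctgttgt
Dst, chr1:34011345-34011644, plus strand: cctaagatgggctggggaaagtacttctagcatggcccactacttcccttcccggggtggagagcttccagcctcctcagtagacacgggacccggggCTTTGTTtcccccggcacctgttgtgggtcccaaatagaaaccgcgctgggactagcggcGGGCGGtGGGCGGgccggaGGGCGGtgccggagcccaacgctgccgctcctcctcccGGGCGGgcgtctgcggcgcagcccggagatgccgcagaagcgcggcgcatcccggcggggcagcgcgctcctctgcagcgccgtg
Cd151, chr7:141467112-141467411, plus strand: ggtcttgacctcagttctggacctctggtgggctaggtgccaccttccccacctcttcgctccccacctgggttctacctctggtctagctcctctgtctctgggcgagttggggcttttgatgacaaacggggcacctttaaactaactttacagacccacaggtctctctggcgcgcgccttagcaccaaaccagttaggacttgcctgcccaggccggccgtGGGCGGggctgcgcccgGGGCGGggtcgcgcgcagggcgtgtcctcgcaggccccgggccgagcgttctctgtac
The printed Lamb3 window held none of the 3 motifs. The printed Dst window held 1 TCF/LEF match that begins at position -152 from the start and 4 GC boxes. The printed Cd151 window held 2 GC boxes at positions -25 and -8. Lamb3, Dst and Cd151 each have a second window, at another start and not printed, which held none of the 3 motifs. Which start serves the transcripts that the probes read is not given in the sources used here. Of the 8 windows of members, 2 held a TCF/LEF match (the Dst window above and a downstream start of Itga3), 1 held an AP-1 match (the same Itga3 start) and 4 held a GC box. Among all 32851 windows of the table, 18.6% held the TCF/LEF core, 7.81% the AP-1 site and 35.7% the GC box. A match describes the letters of a window and is not a binding site, and no match says only that these letters are not in the window.

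None of the 9 genes passed the test in follicles of E7386 mice against vehicle mice. Signals are log2 processed intensities minus the 75th percentile of the array, changes are E7386 minus vehicle, and the threshold is an adjusted p of 0.05 over all genes (limma, Benjamini-Hochberg). By this test 0 of 9 members were called, beside 1.12% of all genes tested (0.753% higher and 0.367% lower). Of all calls 67.3% were higher with E7386, a share of 52.3% when arrays were scaled by their median and 57% with normexp, an offset of 50 and quantile normalisation. The share was 64.8% with quantile normalisation alone. The lowest share of any alternative was that of median scaling, and the highest was 84.7%, with the replicate number as a block. Adjusted p-values of the members ran from 0.20 to 0.868 (limma), and 3 of 9 had an unadjusted p under 0.05, beside 15.2% of all genes. These were Lama3 and Lamb3, higher with E7386 as 7.47% of all genes were, and Cd151, lower as 7.7% were. The median change of the members was 0.15, beside 0.0088 for all genes, with 6 of 9 means higher with E7386, beside 52% of all genes. On the brightest probes the largest bound of any member's 95% interval was 0.799, on the log2 scale, for Dst. The interval of a second, dimmer Trp63 probe reached -0.92. The groups of arrays did not overlap for 2 members, beside 10.5% of all genes: Lama3 lay above (4.82% of all genes did) and Cd151 below (5.7% did). In these bulk samples, fewer cells of a type and less RNA per cell cannot be told apart.

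**Figure D1:**
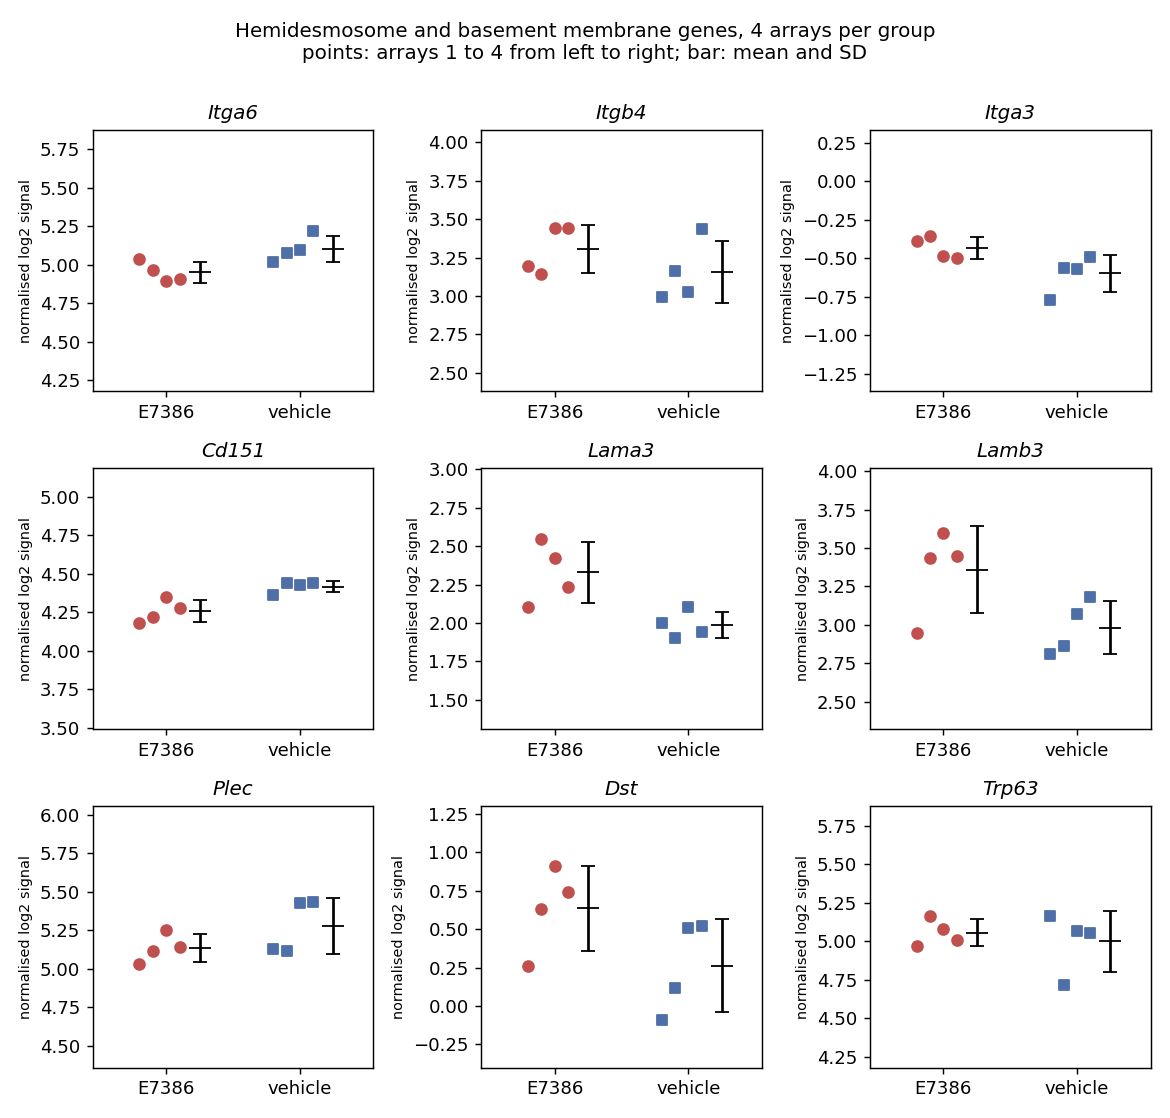
Normalised log2 signal (vertical axis, same span in every panel) of the 9 members on each array, E7386 (circles) left and vehicle (squares) right, with mean and SD beside each group (n = 4). The groups separate only for Lama3, by less than 0.01, and for Cd151, while Lamb3 and Dst have higher E7386 means with overlapping arrays.

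Lama3 and Lamb3, together with Dst, had the largest E7386 means relative to vehicle among the members. Lama3, the alpha chain and the part that integrins bind, had signals of 2.11, 2.55, 2.43 and 2.23 in E7386 follicles, against 2.00, 1.90, 2.10 and 1.94 in vehicle follicles. All E7386 values lay above all vehicle values, but the lowest E7386 value and the highest vehicle value nearly touched. The means were 2.33 ± 0.20 with E7386 and 1.99 ± 0.09 with vehicle (SD, n = 4 each), a change of 0.34 (SE 0.11, 95% interval 0.09 to 0.59) with an unadjusted p of 0.014 and an adjusted p of 0.20 by limma. A second Lama3 probe had signals of 1.27, 1.87, 1.71 and 1.63 with E7386 and 1.15, 1.25, 1.5 and 1.30 with vehicle, with a change of 0.32 (95% interval -0.00516 to 0.64). Both probes point the same way, and the second one overlaps between the groups because E7386 replicate 1 lies among the vehicle arrays.

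Lamb3, the beta chain, had signals of 2.95, 3.44, 3.60 and 3.45 in E7386 follicles, against 2.81, 2.87, 3.07 and 3.18 in vehicle follicles. E7386 replicates 2, 3 and 4 lay above every vehicle array, and E7386 replicate 1 lay among them. The change of 0.38 (SE 0.15, 95% interval 0.02 to 0.73) is a 1.30-fold difference, with an adjusted p of 0.30 (limma), and over the fits that left out 1 array it ran from 0.30 without E7386 replicate 3 (adjusted p = 0.55 by limma) to 0.51 without E7386 replicate 1 (adjusted p = 0.11).

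None of the 3 integrin subunits passed the test, and Itga6 had a lower mean with E7386 while Itgb4 and Itga3 had higher ones. Itga6, the alpha subunit of the hemidesmosomal integrin and a marker used to sort basal and bulge cells, had signals of 5.04, 4.97, 4.89 and 4.91 with E7386, against 5.01, 5.08, 5.09 and 5.22 with vehicle. Only E7386 replicate 1 lay inside the vehicle range, and the change was -0.15 (SE 0.07, 95% interval -0.32 to 0.02, adjusted p = 0.386 by limma). It was -0.23 both with arrays scaled by their median (adjusted p = 0.22) and without the 3 arrays of lowest muscle signal, E7386 replicates 1 and 2 and vehicle replicate 1 (adjusted p = 0.37). Itgb4, the beta subunit of the hemidesmosomal integrin and the one that recruits plectin, had signals of 3.20, 3.14, 3.44 and 3.44 with E7386, against 3.00, 3.16, 3.02 and 3.43 with vehicle. These groups overlap widely, with a change of 0.15 (SE 0.12, 95% interval -0.14 to 0.44, adjusted p = 0.62 by limma). The change of Itgb4 was 0.07 when arrays were scaled by their median and 0.24 without vehicle replicate 4.

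Itga3, the alpha subunit of the focal-contact laminin receptor, had signals of -0.39, -0.35, -0.49 and -0.50 in E7386 follicles, against -0.77, -0.56, -0.57 and -0.49 in vehicle follicles. Vehicle replicate 1 was the lowest array and vehicle replicate 4 lay among the E7386 values. The change was 0.17 (SE 0.08, 95% interval -0.02 to 0.36, adjusted p = 0.39 by limma), and without the 3 arrays of lowest muscle signal it was 0.05, and with arrays scaled by their median 0.09. Cd151, the tetraspanin that holds these integrins in the membrane, had signals of 4.18, 4.22, 4.35 and 4.28 in E7386 follicles, against 4.36, 4.44, 4.43 and 4.44 in vehicle follicles. Every E7386 array lay below every vehicle array, by a small margin between E7386 replicate 3 and vehicle replicate 1. The change was -0.16 (SE 0.07, 95% interval -0.31 to -0.00433), a 1.12-fold difference with an unadjusted p of 0.045 and an adjusted p of 0.31 (limma). The second probe of Cd151 had signals of 0.62, 0.56, 0.75 and 0.61 with E7386, against 0.62, 0.96, 1.09 and 0.71 with vehicle. Here the groups overlap, and the change was -0.21 (95% interval -0.48 to 0.06).

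**Figure D2:**
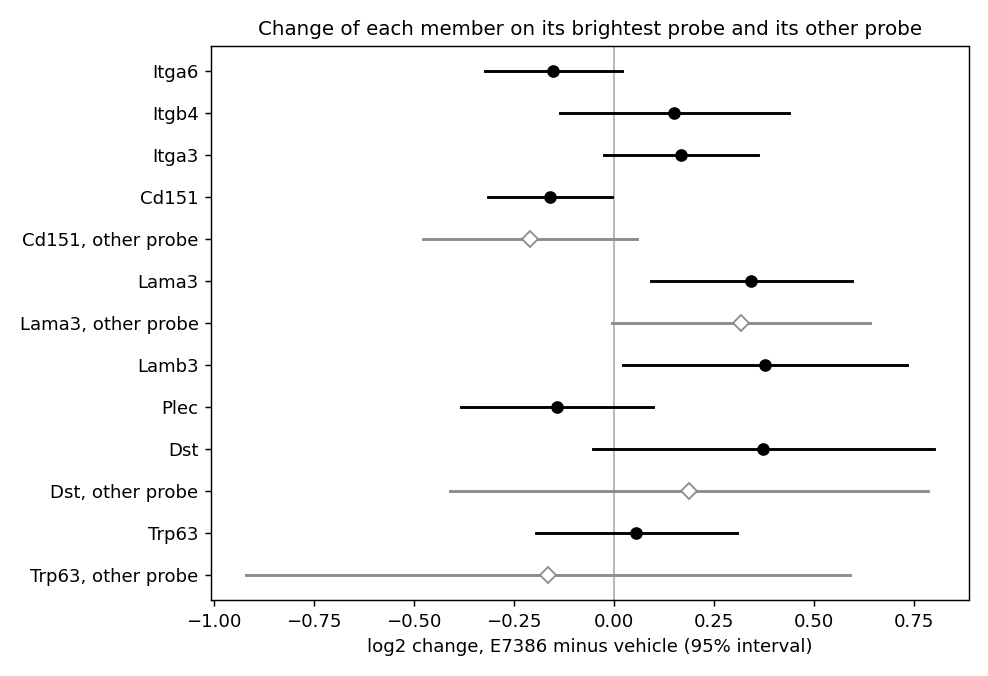
Log2 change, E7386 minus vehicle, with its 95% interval, for each member on its brightest probe (black) and, for Lama3, Dst, Cd151 and Trp63, on its other probe (grey), which comes from a fit over all detected probes. The black intervals of Lama3, Lamb3 and Cd151 leave out 0 before adjustment, and both Trp63 probes span it. In the fit over all detected probes the brightest Cd151 probe has an interval of -0.319 to 0.000632, which spans 0.

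Of the plakins that link the integrin to keratin filaments, Dst had a higher mean with E7386 and Plec a lower one, both short of the threshold. Dst encodes dystonin, whose epithelial, neural and muscle forms come from different starts, and which forms a probe reads is not given in the sources used here. Its brighter probe had signals of 0.26, 0.63, 0.91 and 0.74 in E7386 follicles, against -0.09, 0.12, 0.51 and 0.52 in vehicle follicles. E7386 replicates 2, 3 and 4 lay above all vehicle arrays, and the change was 0.37 (SE 0.19, 95% interval -0.05 to 0.80, adjusted p = 0.39 by limma). The other Dst probe, listed under another transcript, had signals of -0.65, -0.38, 0.02 and -0.01 with E7386, against -1.11, -0.53, -0.05 and -0.08 with vehicle. On it the groups overlap, replicate 1 was again the lowest array of each group, and the change was 0.19 (95% interval -0.41 to 0.79).

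Plec encodes plectin, which binds the tail of integrin beta4. Its signals were 5.03, 5.11, 5.25 and 5.14 in E7386 follicles, against 5.13, 5.12, 5.43 and 5.44 in vehicle follicles. Vehicle replicates 3 and 4 stood above the other 6 arrays, and the change was -0.14 (SE 0.10, 95% interval -0.38 to 0.10, adjusted p = 0.57 by limma). The same arrays had the lowest mean of hair shaft keratins (7.66 and 7.98, against 8.50 to 9.20 on the others). The part of hair shaft content in the Plec values was not tested. Without vehicle replicate 3 or 4 the change of Plec was -0.09, and with arrays scaled by their median -0.22.

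Plectin and dystonin are also made in skeletal muscle, and the whisker pad holds muscle, so the level of muscle RNA is given beside them. The mean signal of 11 muscle markers was 2.15, 2.98, 5.05 and 5.21 on the E7386 arrays, against 1.83, 4.28, 4.80 and 5.10 on the vehicle arrays, and all 11 were well above background on every array. In both groups replicate 1 had the least muscle signal and the lowest Dst signal, and it had the lowest Lamb3 signal as well. With the muscle mean as a covariate, the change of Dst was 0.40 (unadjusted p = 0.00539, adjusted p = 0.0948 by limma), that of Lamb3 was 0.40 (adjusted p = 0.113) and that of Plec was -0.13 (adjusted p = 0.43), none past the threshold. Without the 3 arrays of lowest muscle signal, Dst had a change of 0.45 (adjusted p = 0.32 by limma) and Lamb3 one of 0.48 (adjusted p = 0.22).

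**Figure D3:**
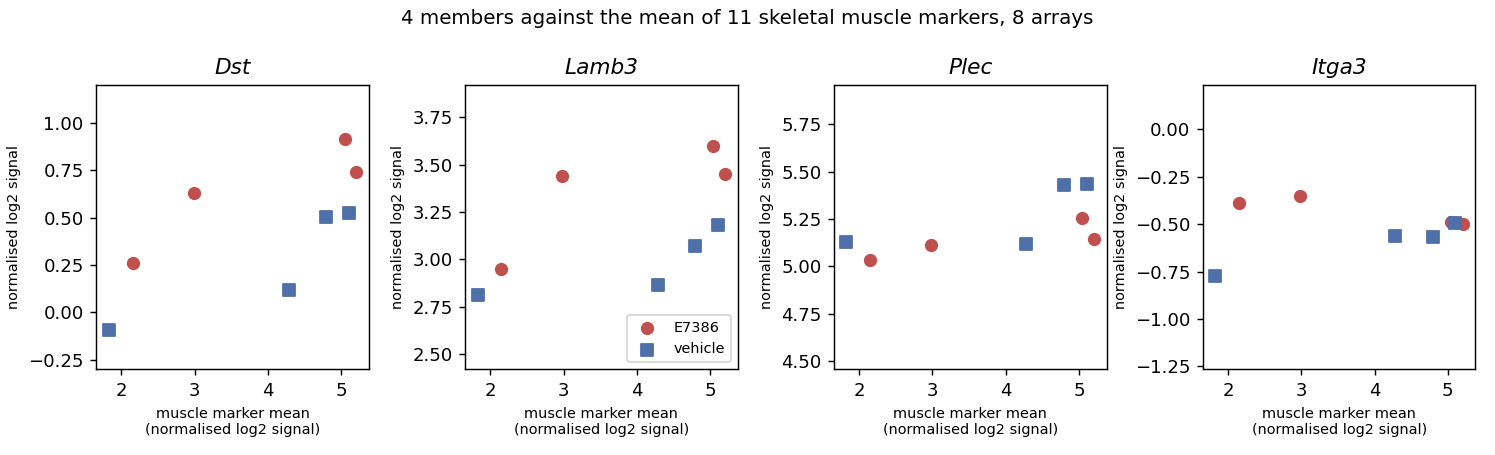
Normalised log2 signal of Dst, Lamb3, Plec and Itga3 (vertical axes, same span) against the mean signal of 11 skeletal muscle markers (horizontal axis) on the 4 E7386 arrays (circles) and 4 vehicle arrays (squares). The arrays with the least muscle, at 2.15 with E7386 and 1.83 with vehicle, have the lowest Dst and Lamb3 signal of their groups.

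Trp63, which encodes p63, had signals of 4.97, 5.17, 5.08 and 5.01 in E7386 follicles, against 5.17, 4.71, 5.07 and 5.06 in vehicle follicles. Vehicle replicate 2 was the lowest array, and the other 3 vehicle arrays lay within the range of the E7386 arrays. The change was 0.06 (SE 0.11, 95% interval -0.20 to 0.31, adjusted p = 0.868 by limma), and its sign turned with arrays scaled by their median (-0.02), with the mean of its probes (-0.06) and without vehicle replicate 2 (-0.04). A second Trp63 probe, listed under another transcript, had signals of 0.88, 1.13, 1.48 and 0.91 with E7386, against 0.67, 0.65, 1.78 and 1.96 with vehicle. On that probe vehicle replicates 3 and 4 stood apart from vehicle replicates 1 and 2, and the change was -0.17 (95% interval -0.92 to 0.59). The mean of 6 hair shaft keratins was 8.75, 8.50, 8.54 and 9.20 on the E7386 arrays, against 8.77, 9.01, 7.66 and 7.98 on the vehicle arrays, so vehicle replicates 3 and 4 were also the lowest in hair shaft signal. The part of hair shaft content in the probe's spread was not tested.

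The RNA of basal keratinocytes was read through the keratins that p63 controls, which does not separate cell number from RNA per cell. Krt5 and Krt14, the keratin pair of basal cells, had changes of -0.03 (SE 0.08) and 0.06 (SE 0.12), and Col17a1, the transmembrane collagen of hemidesmosomes (BP180), had one of -0.04 (SE 0.20), none past the threshold and all with signs that turned under some alternatives. Krt5 was at -0.24 with quantile normalisation and in the authors' deposited table, and Krt14 at 0.28 without the 3 arrays of lowest muscle signal. The summed signal of 4 basal markers ran from 9.46 to 9.77 on E7386 arrays and from 9.62 to 9.75 on vehicle arrays on the log2 scale. Krt5, with means of 9.19 with E7386 and 9.23 with vehicle, makes up most of this sum. Members were then set against the mean of Krt5 and Krt14 within each array, which a scaling factor for the whole array does not change. The change relative to these keratins was 0.33 for Lama3, 0.36 for Lamb3, 0.36 for Dst, -0.17 for Cd151, -0.17 for Itga6, -0.16 for Plec, 0.15 for Itga3, 0.14 for Itgb4 and 0.04 for Trp63 (n = 4 per group). The smallest exact two-sided permutation p was 0.0857, shared by Lama3, Lamb3 and Cd151, and 0.257 after Benjamini-Hochberg adjustment over the 9 genes, where 4 against 4 samples can reach 0.0286. All 9 genes overlapped between the groups on this relative scale. These relative values depend on the source: in the authors' deposited table they were 0.45 for Lama3, 0.48 for Lamb3 and 0.48 for Dst. Each had the smallest exact permutation p of 0.0286 (0.0857 adjusted over the 9 genes). Cd151 was there at -0.05 relative to the keratins (exact permutation p = 0.571), and Itga6 and Plec were at -0.06. The changes of the genes themselves hardly differed in that table, at 0.35 for Lama3, 0.38 for Lamb3, 0.38 for Dst and -0.15 for Cd151. The keratins they were set against had changes of -0.24 (Krt5) and 0.03 (Krt14) there, against -0.03 and 0.06 above.

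Among 85 tested genes of 8 other adhesion lists, 2 were called higher with E7386 and 0 lower at an adjusted p under 0.05 (limma). These are 2.35%, beside 1.12% of all genes, or 0.753% for those higher. Of the 85 genes, 12 had an unadjusted p under 0.05 (14.1%, beside 15.2% of all genes). Both called genes encode type IV collagen chains, the network-forming collagens of basement membranes. Col4a1 had signals of 2.61, 2.37, 2.44 and 2.34 in E7386 follicles, against 1.83, 1.87, 1.90 and 1.75 in vehicle follicles, with no overlap and a gap wider than the spread of either group. The change of 0.60 (SE 0.08, 95% interval 0.41 to 0.79) is 1.52-fold, with an adjusted p of 0.0183 by limma. Col4a2, which pairs with Col4a1 in the main collagen IV trimer, had a change of 0.27 (SE 0.09, adjusted p = 0.23 by limma). Col4a5 and Col4a6, which are outside the naming rule, were at -0.08 and -0.02. The list of 23 other basement membrane genes that holds these chains had a median change of -0.04. In it 8 means were higher with E7386 and 15 lower, beside 52% higher among all genes.

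Col4a4, a chain of a more restricted collagen IV trimer, had signals of -1.79, -1.63, -1.44 and -1.57 in E7386 follicles, against -2.36, -2.27, -2.13 and -2.13 in vehicle follicles. The groups did not overlap, and the change was 0.61 (SE 0.10, adjusted p = 0.0299 by limma), but its other detected probe had a change of 0.10, and the change was 0.36 with the mean of its probes and 0.35 with normexp, an offset of 50 and quantile normalisation. The calls of Col4a1 and Col4a4 were kept in 2 and 1 of the 8 fits that left out 1 array, with Col4a1 kept without E7386 replicate 1 and E7386 replicate 4, and Col4a4 kept without E7386 replicate 1. Over these 8 fits the changes ran from 0.54 to 0.64 for Col4a1 and from 0.56 to 0.67 for Col4a4. With the replicate number as a block the changes were 0.60 and 0.61, but neither gene passed (adjusted p of 0.0896 for Col4a1 and 0.0631 for Col4a4 by limma), and neither did without the 3 arrays of lowest muscle signal (changes of 0.55 and 0.67, adjusted p of 0.147 and 0.12). Col4a1 was also not called with arrays scaled by their median (0.52, adjusted p = 0.0625), and Col4a4 not with the mean of its probes (adjusted p = 0.158) or with no detection filter (adjusted p = 0.0652). Col4a3, named after its values were seen, was not well above background on any E7386 array and was so on 3 vehicle arrays, and no fold is given.

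Other lists had no call. Among 8 other laminin chains the median change was 0.02, and Lamc3, a gamma chain, had the smallest p with a change of 0.47 (SE 0.11, adjusted p = 0.11 by limma) and groups that did not overlap. The 6 other hemidesmosome parts and partners had a median of 0.07 and the 5 other plakins one of 0.08, with Itgb1, the partner of integrin alpha3, at 0.11 (SE 0.15), Erbin, which binds integrin beta4, at 0.18 and Ppl, which encodes periplakin, at 0.15. The 14 other integrins had a median of -0.11, with Itga9 at 0.22 and Itgav at -0.35 (-0.20 without vehicle replicate 1 and -0.21 with the mean of its probes), and the 6 other tetraspanins one of -0.05, with Cd63 at -0.16.

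Of the 12 intracellular linkers of integrin adhesions, 3 had higher means with E7386, beside 52% of all genes. Of the same 12, 5 had a lower mean with an unadjusted p under 0.05 by limma, beside 7.7% of all genes, with no test of the list. Vcl, which encodes vinculin, had signals of 0.98, 1.09, 1.00 and 0.84 in E7386 follicles, against 1.27, 1.32, 1.38 and 1.41 in vehicle follicles, with no overlap. Its change was -0.37 (SE 0.08, adjusted p = 0.0779 by limma), its other probe gave -0.48, and it passed the threshold with normexp on median signals and an offset of 50, with the mean of its probes and with trend and robust options. Lims1, which encodes the focal adhesion adaptor PINCH1, was at -0.34 and Fermt2, which encodes kindlin-2, at -0.24, while Fermt1, the epithelial kindlin, was at 0.25. The 14 genes of the p63 family and its targets had a median of -0.04, and Cldn1, a tight junction protein, was at 0.18 and Zfp750, a factor of keratinocyte differentiation, at -0.23, both short of the threshold.

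**Figure D4:**
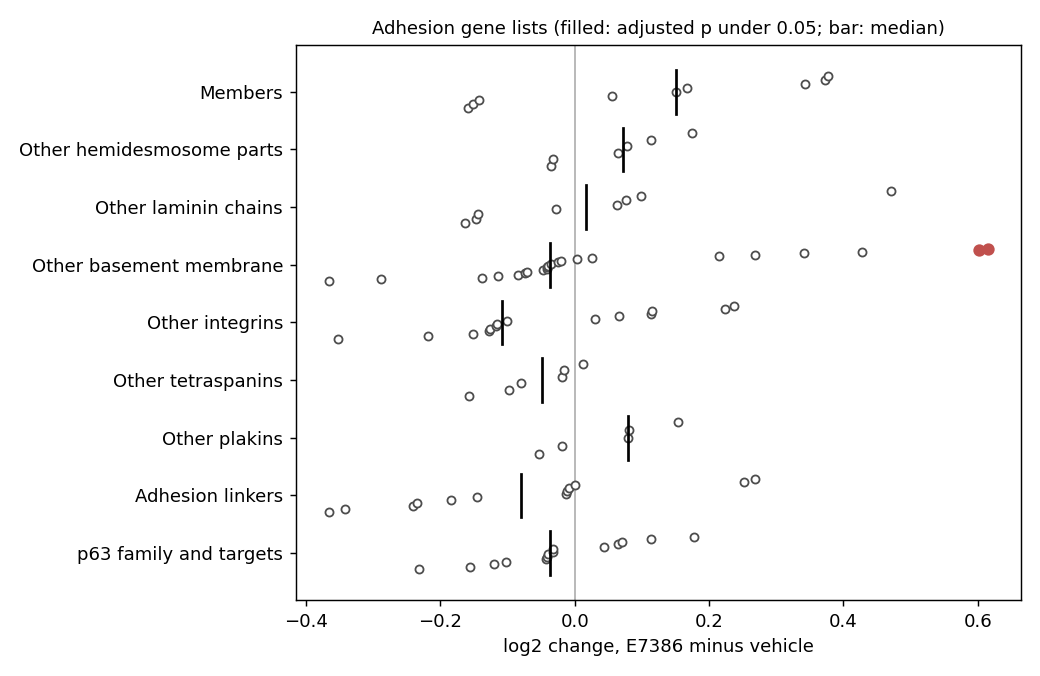
Log2 change, E7386 minus vehicle, of each tested gene in the 9 members and the 8 other adhesion lists, with the median as a bar and genes with an adjusted p under 0.05 filled. The filled points are Col4a1 and Col4a4, and Col4a3, which was not well above background with E7386, is not drawn but counts in the median of its list.

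The labelled tissue was checked against cell type markers, and signals of muscle, nerve, vessel and dermis were present beside those of keratinocytes. The summed muscle markers ran from 7.50 to 10.18 on E7386 arrays and from 7.10 to 10.02 on vehicle arrays on the log2 scale. All measured markers of basal keratinocytes (4), hair shaft (6), Schwann cells (7), endothelium (6) and fibroblasts (6) were well above background on every array. Integrin alpha6 is also known from Schwann cells and endothelium. The summed Schwann cell markers ran from 4.87 to 5.32 with E7386 and from 4.72 to 5.02 with vehicle, and the summed endothelial markers from 4.05 to 4.36 with E7386 and from 4.00 to 4.21 with vehicle. Their part in the members' values was not tested.

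The genes whose signal moved most like Itgb4 across the 8 arrays, after the group means were taken off, were Vmn2r4 (Pearson r = 0.981, Spearman rho = 0.976), Zc3h8 (r = 0.98, rho = 1) and Gata2 (r = 0.973, rho = 0.905). Those most like Trp63 were Tmem248 (r = 0.984, rho = 0.929), Zfp597 (r = 0.981, rho = 0.976) and Lrig3 (r = 0.981, rho = 0.952). Each is the top of a ranking of 16117 named genes over 8 arrays that share their tissue content and scaling, so these values are a description.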

How the data were processed

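RNA (50 ng per sample, per the labels' protocols) was labelled with Cy3 and measured on 1-colour Agilent arrays. The authors made the deposited intensity values with Agilent Feature Extraction. The file headers give its version as 11.5.1.1, and the submitters' processing notes name version 11. The processed intensity is that program's background-corrected signal. The deposited value table holds log2 values that share 1 set of sorted values in all columns (quantile normalised), and served as an alternative.

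Non-uniform spots were removed, spots of a probe were averaged on the log2 scale and the 75th percentile of each array's probes was subtracted. It ran from 397.3 to 569.1 intensity units, and 61.5% to 64.7% of spots for mouse transcripts were well above background. Symbols came from RefSeq accessions (GRCm38.p6) for 27509 of 55681 probes. A gene was tested if, in either group, 3 or more arrays had its brightest probe well above background. limma 3.58.1 in R 4.3.3 was used, checked on simulated data, with 95% intervals from its moderated test. The members and lists were chosen with earlier results of these data known. Named genes are the members, Krt5, Krt14, Col17a1, Itgb1, called list genes and up to 4 genes of each list with the smallest p, and for Itgb4 and Trp63 the 3 most alike; 1 gene that this rule names is not reported here. Alternatives were scaling, background correction, source table, dim-probe filter, probe choice, variance model, array weights, replicate block, muscle covariate, threshold and leaving out arrays. Normexp on mean signals was not run, as the files used here hold median signals, and normexp on those was added after seeing the data, as was leaving out the 3 arrays of low muscle signal.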

Additional observations from a re-analysis of the deposited data

Results flagged for a closer look

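No group of 4 arrays of a member had an array far from the others. Among the other genes that the naming rule chose, 5 values stood apart from the rest of their group. With the members' probes 94 groups of arrays were examined, where chance flags about 1 in 20, and list genes outside the naming rule were not examined. Itgav was at -0.53 in E7386 replicate 2, against -0.83 to -0.79 in the other E7386 arrays. Cd81 was at 5.82 in vehicle replicate 2, against 5.74 to 5.75 in the other vehicle arrays. In the same array Eppk1 was at 5.35, against 5.67 to 5.73 in the others, and Trp53 was at -1.55, against -1.35 to -1.33. Cldn1 was at 0.61 in vehicle replicate 1, against 0.31 to 0.33 in the other vehicle arrays.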

How the results depend on the processing

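In all 23 alternatives 0 of 9 members were called. The direction of 8 members was the same in each of 22 alternatives, and Trp63 turned in 3: -0.0216 with arrays scaled by their median, -0.0551 with the mean of detected probes and, over fits leaving out 1 array, -0.0402 to 0.11. Both changes of the detection filter, the trend and robust options and the replicate block leave a member's change as it is, so they could not turn it. The authors' table gave nearly the same changes as quantile normalisation. The median change of the members ran from 0.07 to 0.20. Lama3 ran from 0.27 to 0.42 (adjusted p 0.13 to 0.42 by limma) and had an unadjusted p under 0.05 in 22 of 22, Lamb3 in 12, Cd151 in 8, Dst in 4, Itga3 and Itga6 in 1 and Itgb4, Plec and Trp63 in 0. Relative to Krt5 and Krt14, Trp63 was at -0.0274 with the mean of probes and between -0.0547 and 0.11 over fits leaving out 1 array.

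The count of genes called, 284, was 479 with normexp and an offset of 50, 153 with no detection filter, 581 with the muscle covariate, 689 at an adjusted p of 0.1, 48 without the 3 arrays of low muscle signal, and 88 to 240 when 1 array was left out. Calls in the other lists, 2, were 1 with median scaling (Col4a4) and with no detection filter (Col4a1), 0 without the 3 arrays of low muscle signal, and 0 to 2 when 1 array was left out. The cause of these shifts was not tested.

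Whether arrays with the same replicate number share more than that number is not given in the sources used here. Same-numbered arrays had correlations of deviations from -0.165 to 0.487, and 1 of 4 E7386 arrays, replicate 1, correlated best with its own number. With the replicate block 59 genes, 0 members and 0 other list genes were called.

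Changes near 0 that turned sign, none called, were Krt14 (-0.0133) and Lama5 (-0.0014) with median scaling, Perp with normexp and an offset of 50 (-3.02e-05), Cd53 with normexp alone (0.0157), Col17a1 with array weights (0.00848), and, with the low-muscle arrays left out, Krt5 (0.0602), Col17a1 (0.14) and Itgb1 (-0.0668). Leaving out 1 array gave ranges of -0.0684 to 0.0159 for Krt5, -0.0048 to 0.15 for Krt14, -0.12 to 0.14 for Col17a1, -0.0354 to 0.18 for Itgb1, -0.29 to 0.11 for Cd53, -0.0418 to 0.0057 for Cd81 and -0.0073 to 0.12 for Eppk1.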
